A study of Zea mays with 32 samples.

Results

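Zapalote is 1 of 8 native maize landraces whose leaf primordia were profiled by RNA sequencing, and its 4 libraries were compared here with the 28 libraries of the other 7 landraces, out of 32 in all. The 4 Zapalote libraries were 2 of the fifth leaf and 2 of the ninth leaf, chosen by the genotype in the labels. The other landraces, Tabloncillo, Reventador, Mushito, Gordo, Nal-tel, Palomero and Jala, had the same makeup. Every plant was grown at 35 °C, which the labels call heat, and every primordium was taken at plastochron stage 4. The heat is thus shared by all groups, and other temperatures were not analysed here. Landraces are maintained by farmers, and plants of one landrace differ genetically. Nothing in the labels says that the 2 libraries of a group came from separate plants, so p-values measure only the spread between these libraries, which may be technical.

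Maize is a C4 grass whose leaves carry closely spaced veins, each ringed by bundle sheath and mesophyll cells that divide the work of carbon fixation between them, an arrangement named Kranz anatomy. The veins are laid down while the leaf is still a primordium, and vein density and photosynthesis are the subject named in the title of the series. Early leaves of a maize plant are juvenile and later ones adult, and the change between them alters epidermal wax, hairs and cell shape. Maize of the name Zapalote is known from the hot lowlands of southern Mexico.

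The 4 Zapalote libraries held 77.3 M and 57.5 M recovered reads for the fifth leaf and 60.1 M and 69.7 M for the ninth leaf, within the range of the others (54.8 M to 121.0 M). Of 39756 genes, 26156 had a mean normalized count of at least 10 over the 32 libraries and were tested. The deposited table does not pair its gene IDs with names and no ID matched the RefSeq gene table, which leaves each gene without a function or a position. For the same reason the label of leaf primordium could not be checked against marker genes. In whole primordia, fewer cells of a type and less RNA per cell cannot be told apart. Counts also depend on how well the reads of each landrace matched the reference, which was not tested.

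Replicate 2 of the ninth leaf stood apart from the other 3 Zapalote libraries. Over the 26156 genes, its log2 values correlated with the other 3 at r = 0.934, 0.932 and 0.944, against 0.940 to 0.954 among those 3. These correlations run over genes in libraries normalized together, and they have no test. Its median r with its landrace mates, 0.934, was the lowest of the 32 libraries, and the other 31 ran from 0.936 to 0.967. It lay at least 4-fold above all 3 mates in 320 genes and at least 4-fold below all 3 in 266, together 2.24% of the genes tested. Close behind was replicate 2 of the fifth leaf at 2.08%, while the other 2 Zapalote libraries were at 1.12% and 1.17%. Replicate 2 of the fifth leaf lay at least 4-fold below all 3 mates in 450 genes, the most of the 32 libraries. Replicate 1 of the fifth leaf of Reventador, at 2.49%, was the only library with a share above those of these 2 Zapalote replicates.

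Genes present in replicate 2 of the ninth leaf alone set it further apart. In 36 genes it held a normalized count of at least 50 where each of the 3 mates had 3 reads or fewer, which is taken here as the floor. The other 31 libraries had 0 to 14 such genes. The clearest was Zm00001eb429390, with normalized counts of 1.75 and 2.43 in the fifth leaf, 2.29 in replicate 1 of the ninth leaf and 687 in replicate 2 of the ninth leaf. In Zm00001eb135610 the 4 values were 1.75, 0, 0 and 516. In the opposite direction, Zm00001eb325680 was at 1059.8, 2278 and 330.5 in the first 3 libraries and at 2.05 in replicate 2 of the ninth leaf. Zm00001eb153420 had the same pattern, with 237, 431 and 184 against 2.05. These 4 genes were ranked by this very gap, so the values describe it and are no test of it. Conversely, replicate 2 of the ninth leaf was at the floor in 11 genes in which each mate held at least 50. The 28 libraries of the other landraces had 1 to 16 such genes. Replicate 2 of the fifth leaf of Zapalote had 33, the most of the 32 libraries.

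A held-out comparison measured the same departure on genes that the library had not helped to choose. The test of Zapalote against the other 7 landraces was refitted without replicate 2 of the ninth leaf, and 969 genes passed an adjusted p of 0.05 (limma with Benjamini-Hochberg adjustment). In 67.9% of those 969 genes, replicate 2 of the ninth leaf lay on the same side of the other 7 landraces as its mates. For the other 3 Zapalote libraries, each held out in turn, the share was 87.6%, 90.1% and 87.9%, and 67.9% was the lowest of all 32 libraries. Its median log2 difference in those genes, signed by the mates' direction, was 0.34, against 1.96 in the mates. The ratio of these medians, 0.175, was the lowest of the 32, and the others ran from 0.339 to 0.889. Replicate 1 of the fifth leaf of Tabloncillo came next to it, with a share of 68.5% and a ratio of 0.339.

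**Figure D1:**
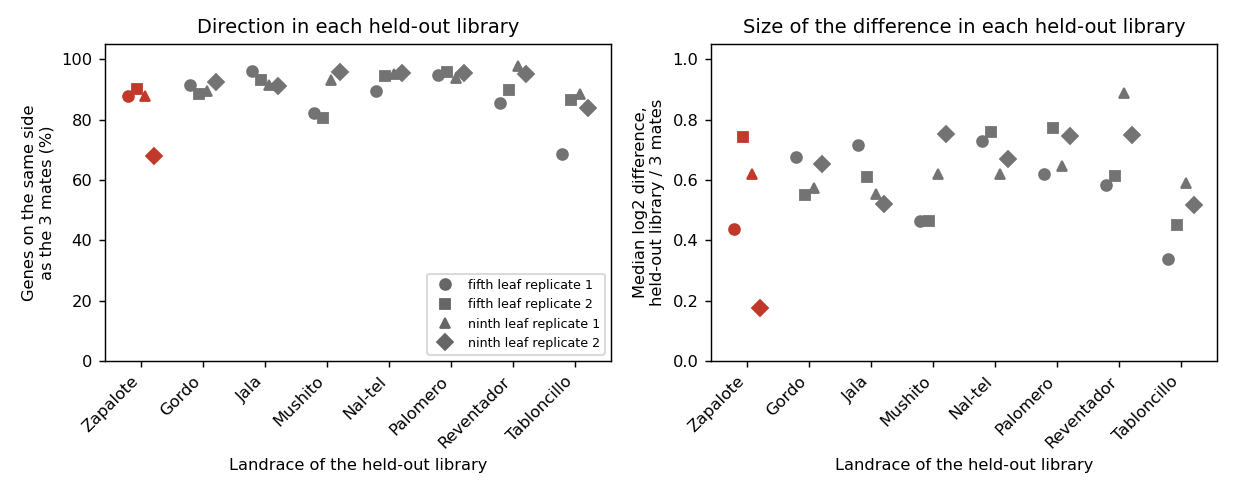
Left, percent of the genes called without a library in which that library lay on the same side of the other 7 landraces as its 3 mates; right, the median log2 difference in the held-out library divided by that in its mates. Each point is 1 of 32 libraries, with Zapalote in red and one symbol per leaf and replicate. The lowest point in both panels is replicate 2 of the ninth leaf of Zapalote, at 67.9% and 0.175.

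The departure was largest toward Gordo. Replicate 2 of the ninth leaf of Zapalote correlated with the 4 Gordo libraries at a median r of 0.938, above its median r of 0.934 with its own mates, and its closest single library was still replicate 1 of the ninth leaf of Zapalote at 0.944. The other 3 Zapalote libraries had a median r with Gordo of 0.919, 0.907 and 0.919. For each of the 4 Gordo libraries in turn, replicate 2 of the ninth leaf of Zapalote was the library of another landrace with the highest r, from 0.935 to 0.940.

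Genes in which Gordo and the other 3 Zapalote libraries were clearly separate show where the library lay between them. In 352 genes those 3 libraries and the 4 Gordo libraries were at least 4-fold apart with no overlap. On a scale where 0 is the mean of the 3 mates and 1 the mean of Gordo, replicate 2 of the ninth leaf had a median position of 0.49 in log2 values and 0.444 in linear counts. The middle 50% of genes spanned 0.133 to 0.715 in linear counts, and in 48.9% of the genes the library was past the midpoint in log2 values. Toward the other 6 landraces its median log2 position was 0.17 to 0.24, and the other 3 Zapalote libraries lay at 0 to 0.01 toward Gordo. For those 3 libraries the mates included replicate 2 of the ninth leaf, and the genes numbered 175, 190 and 180. Their genes and their zero point thus differ from those of the 352 genes. Over all 224 pairs of a library and another landrace, 0.49 was the highest, and the other 223 ran from -0.05 to 0.31 with a median of 0.02.

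Genes silent in the mates and present in Gordo are part of the 352 genes, so they are no separate evidence. In 29 genes the 3 mates had 3 reads or fewer each and all 4 Gordo libraries had a normalized count of at least 50. In 25 of these 29 genes (86.2%) replicate 2 of the ninth leaf was above the floor, at a median of 38.5% of the Gordo level. By the same rule it was above the floor in 17 of 24 genes toward Reventador (70.8%) and 15 of 22 toward Mushito (68.2%), at a median of 4.65% and 8.35% of their levels. The other 3 Zapalote libraries were above the floor in 20% to 50% of 5 to 8 such genes toward Gordo. Their mates included replicate 2 of the ninth leaf, so the genes are not the same ones. Of the 36 genes present in replicate 2 of the ninth leaf alone among the Zapalote libraries, 17 were at 50 or more in all 4 Gordo libraries, against 1 to 7 for each of the other 6 landraces. Those 17 genes lie within the 29. Zm00001eb429390 was among the genes high in Gordo, with a mean there of 3416 (range 2496 to 3909) against the 687 in replicate 2 of the ninth leaf. What set the library apart was not tested. These measures of departure were chosen with the data in view, and the counts of called genes are therefore given with and without this library.

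**Figure D2:**
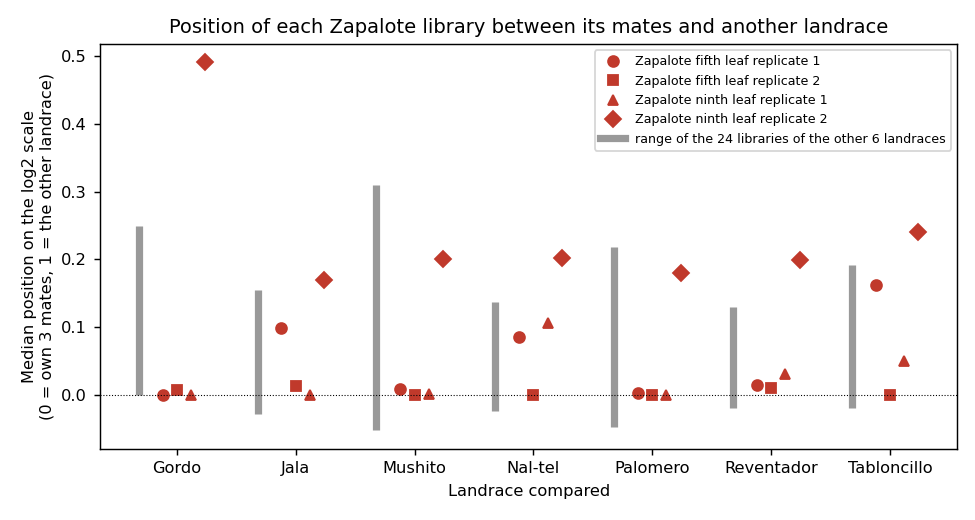
Median position of each Zapalote library (red symbols) between its own 3 mates at 0 and each other landrace at 1, over genes in which these are at least 4-fold apart. The mates and the genes differ from library to library. Grey bars span the positions of the libraries of the remaining landraces toward the same landrace. Replicate 2 of the ninth leaf lies at 0.49 toward Gordo and at 0.17 to 0.24 toward the others.

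Averaged over both leaves, 1261 genes differed between Zapalote and the mean of the other 7 landraces at an adjusted p under 0.05, 4.82% of the genes tested (limma, Benjamini-Hochberg adjustment). Of these, 611 were higher and 650 lower in Zapalote. With all libraries in the fit, this was the lowest share of any landrace against the rest: Mushito followed at 5.22%, and Reventador was highest at 21.2%. The counts changed in every landrace when single libraries of its own were left out. Whether the rank depends on replicate 2 of the ninth leaf was not tested. The comparisons of different landraces share libraries, so their shares stand side by side here without a test. Among the 1261 genes, 783 differed at least 2-fold and 216 at least 8-fold, and without replicate 2 of the ninth leaf 686 and 288 of 969 did. The median size of the log2 difference was 1.47, against 0.16 over all genes tested. Called genes were most frequent among those with a mean of 50 to 200, at 9.27%, and least frequent above 5000, at 2.17%.

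The count depended on which Zapalote libraries were in the fit. Without replicate 2 of the ninth leaf it was 969 (3.7%), of which 730 were among the 1261. Leaving out replicate 1 of the fifth leaf gave 882, replicate 2 of the fifth leaf gave 436 and replicate 1 of the ninth leaf gave 497. The test sets the Zapalote mean against the spread between replicate libraries. Against the spread between landraces, 9 genes (0.0344%) passed an adjusted p of 0.05 and 670 an unadjusted p of 0.05 (limma), all 9 of them among the 1261. The 670 are a smaller share of the 26156 genes than the 0.05 that p-values give without any difference. An edgeR quasi-likelihood fit on recovered reads called 1325 genes (5.07%), 70.3% of them higher in Zapalote against 48.5% in limma, and 1003 were shared.

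Within the 1261 genes the 4 libraries mostly moved together. All 4 lay on the same side of the mean of the other 7 landraces in 1079 genes (85.6%), against 24.5% of all genes tested. The fifth and the ninth leaf had the same direction in 1237 (98.1%), against 57.2% of all genes tested. The exception was most often replicate 2 of the ninth leaf, on the other side in 129 genes, in 121 of them alone. The other 3 libraries did so in 16 to 28 genes, and alone in 15 to 20. The Zapalote mean was outside the range of the 7 other landrace means in 894 of the 1261 genes (70.9%), against 19.8% of all genes tested. Leaving out replicate 2 of the ninth leaf gave 766 of 969 (79.1%), against 23.4%. These genes were chosen for the Zapalote mean, so the shares are a description.

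Very few genes separated every Zapalote library from every other. The 4 libraries lay all above the other 28 in 17 genes and all below in 10, together 27 genes or 0.103% of those tested. The same count for the other landraces ran from 41 in Mushito to 341 in Reventador. Without replicate 2 of the ninth leaf, the remaining 3 Zapalote libraries lay outside the other 28 in 115 genes (0.44%), 83 above and 32 below. In 92 of these 115 the library left out was on the same side of the mean of the others. Leaving out any other Zapalote library gave 46 to 54 genes.

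Among genes higher in Zapalote whose libraries did not overlap and whose mean normalized count reached 100, Zm00001eb375760 had the largest difference. The fifth leaf libraries held normalized counts of 1594 and 1530.1, and those of the ninth leaf 640.3 and 954. The 28 other libraries ran from 0 to 597 with a median of 1.55. They were themselves split, with a mean of 299.9 in Gordo and 141 in Jala and of 0.984 in Reventador. Single landraces were split too, with 0 to 597 in Gordo, 0 to 286 in Jala and 0 to 151 in Nal-tel. The log2 difference was 7.63 ± 1.32 (SE), with an adjusted p of 0.00163 in limma. Zm00001eb251660 differed less but evenly. The fifth leaf libraries were at 233 and 213 and the ninth leaf libraries at 402 and 282, against 53.9 to 195 elsewhere, a log2 difference of 1.31 ± 0.24 (limma adjusted p = 0.00259). All 4 libraries of both genes were above every other library.

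Among genes lower in Zapalote, by the same rule, Zm00001eb391290 came first. The fifth leaf values were 43.8 and 70.5 and the ninth leaf values 4.59 and 6.16, against 113 to 2218 with a median of 869 in the 28 other libraries. The log2 difference was -5.37 ± 0.37 (limma adjusted p = 2.13e-08). It also passed against the spread between landraces (adjusted p = 0.0443). Zm00001eb193410 was at 15.8, 17.0, 5.74 and 30.8 against 56.7 to 452, a log2 difference of -3.28 ± 0.43 (limma adjusted p = 0.000134). Replicate 2 of the ninth leaf was the highest of the 4 Zapalote libraries in that gene and still below all 28 others. Against the spread between landraces Zm00001eb193410 did not pass (adjusted p = 0.229), nor did Zm00001eb375760 or Zm00001eb251660 (adjusted p = 0.99977 in each).

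In 1 gene all 4 Zapalote libraries were at the floor while all 28 others were above it, and in 2 genes the reverse held. Zm00001eb382470 had 0 reads in the 4 Zapalote libraries and normalized counts of 11.97 to 129 elsewhere (mean 57.9, SD 30.9, n = 28). Set against the floor of 3 reads per library, it was at least 18.1-fold lower in Zapalote. Zm00001eb389410 was at 603, 354, 150.3 and 275 in Zapalote, and at 0 in all other libraries but 1 of Palomero at 2.20. Against the floor it was at least 111-fold higher. Zm00001eb258410 was at 179.7, 119, 163 and 104, and at 0 elsewhere but for 1 Palomero library at 2.45, at least 45.2-fold higher. The rule required this pattern of all 4 Zapalote libraries, replicate 2 of the ninth leaf included. Zm00001eb382470, Zm00001eb389410 and Zm00001eb258410 were among the 9 genes that passed against the spread between landraces, with limma adjusted p of 0.0417, 0.0373 and 0.0443. The 2 genes above the floor in Zapalote alone, Zm00001eb389410 and Zm00001eb258410, passed the filter on the mean only through Zapalote. The other 28 libraries averaged 0.0787 and 0.0876 in them, so their p-values and their number are a description. DESeq2 did not call Zm00001eb389410 (adjusted p = 0.125) or Zm00001eb258410 (adjusted p = 0.193), while edgeR called both.

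**Figure D3:**
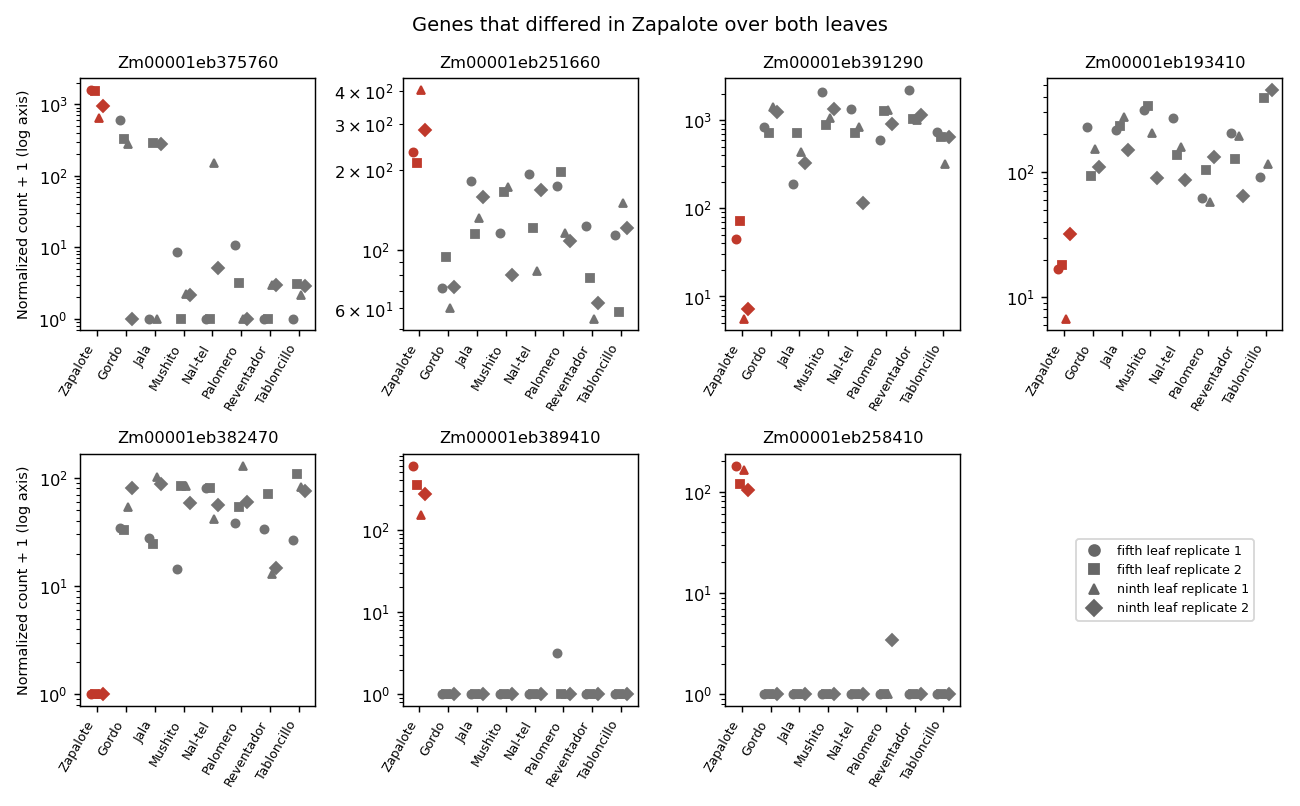
Normalized count plus 1 on a log axis in each of the 32 libraries, by landrace, for the 7 genes named over both leaves, with Zapalote in red. In every panel the 4 Zapalote libraries lie beyond the other 28, and in 3 panels one side lies at the floor.

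By leaf, most of the calls came from the fifth. In the fifth leaf 1096 genes differed from the mean of the other 7 landraces (limma adjusted p under 0.05, 4.19% of genes tested), 485 higher and 611 lower. In the ninth leaf 188 did so (0.719%), 89 higher and 99 lower. The ninth leaf mean holds replicate 2 of the ninth leaf. Without it, with 1 ninth leaf library left that was assumed to vary like the other groups, the ninth leaf count was 116 (0.443%) and the fifth leaf count 1124 (4.3%). Without replicate 1 of the ninth leaf the ninth leaf count was 78. The fifth leaf count fell to 447 without replicate 1 of the fifth leaf, to 86 without replicate 2 of the fifth leaf and to 480 when only the 16 libraries of the fifth leaf were fitted. In edgeR 1102 genes of the fifth leaf (4.21%) and 346 of the ninth (1.32%) were called, with 70.6% and 85.3% of them higher in Zapalote, against 44.3% and 47.3% in limma. Whether the count itself differs between leaves has no test of its own, and the leaf difference was tested gene by gene.

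The lists of the 2 leaves shared 75 genes, 6.84% of the fifth leaf list and 39.9% of the ninth leaf list, and 74 of the 75 had the same direction. Of the 1261 genes called over both leaves, 526 were called in neither leaf alone. The leaves shared 72 genes without replicate 2 of the ninth leaf, 6.41% and 62.1% of their lists, and 359 of the 969 were called in neither leaf. In the 1096 genes of the fifth leaf, the median log2 difference was 1.36 in size. The ninth leaf libraries of Zapalote entered the choice of those genes only through the shared estimate of spread. They differed in the same direction in 822 of them (75%), by a median of 0.26. Of all genes tested, 57.2% had one direction in both leaves. These shares were 80.8% and 60.3% without replicate 2 of the ninth leaf. Taken singly, replicate 1 of the ninth leaf showed a median of 0.36 in them and replicate 2 of the ninth leaf a median of 0.11. The same libraries, those of Zapalote included, enter the estimate of spread for both leaves.

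In the fifth leaf, Zm00001eb325680 was high in Zapalote and near 0 elsewhere. The fifth leaf values were 1059.8 and 2278, against at most 6.11 in the 14 other libraries of the fifth leaf, a log2 difference of 9.70 ± 1.21 (limma adjusted p = 0.000116). The gene passed the filter on the mean only through Zapalote, so the p-value is a description. Replicate 1 of the ninth leaf held 330.5 and replicate 2 of the ninth leaf 2.05, and the latter lay within the range of the other landraces. For Zm00001eb050580 the fifth leaf values were 1050.1 and 706 and the ninth leaf values 737 and 229, against 0 to 220.1 in the other libraries of the fifth leaf. Its log2 difference was 5.90 ± 1.26 (limma adjusted p = 0.0127), and the call was lost without either library of the fifth leaf and against the spread between landraces (adjusted p = 0.987).

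On the low side, Zm00001eb379840 was near 0 in 3 Zapalote libraries. The fifth leaf values were 1.75 and 2.43, replicate 1 of the ninth leaf held 4.59 and replicate 2 of the ninth leaf held 845. The 14 other libraries of the fifth leaf ran from 227 to 1908, so that Zapalote was at least 413-fold lower against the floor of 3 reads. The log2 difference was -8.59 ± 0.98 (limma adjusted p = 4.18e-05), and it also passed against the spread between landraces (adjusted p = 0.000349). Zm00001eb198070 had the same shape, with 5.26, 0, 2.29 and 503, against 103 to 2658 in the other libraries of the fifth leaf (log2 difference -8.19 ± 1.00, limma adjusted p = 8.75e-05), but not against the spread between landraces (adjusted p = 0.125). In both genes replicate 2 of the ninth leaf lay within the range of the other landraces and the other 3 libraries far below it.

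In the ninth leaf, the 2 libraries of Zapalote lay on the same side in the genes named, which the rule required. Zm00001eb355910 was at 1058 and 1159 in the ninth leaf, against 0 to 779 in the 14 other ninth leaf libraries (log2 difference 4.53 ± 0.98, limma adjusted p = 0.0336). In the fifth leaf the values were 1385 and 729. The other landraces were split in this gene. Over both leaves the means were 4.31 in Tabloncillo and 3.91 in Jala, and from 324 in Gordo to 449 in Palomero in the rest. Within landraces, over both leaves, this gene also varied, from 11.7 to 793 in Gordo and from 4.82 to 675 in Mushito. Its call was lost without Gordo, Jala or Tabloncillo, at a pseudocount of 0.1 and with only the 16 libraries of the ninth leaf. Zm00001eb036580 was at 975 and 1671, against 47.7 to 119 elsewhere, a log2 difference of 3.93 ± 0.67 (limma adjusted p = 0.00534). The fifth leaf libraries split, with 1325 in replicate 1 and 43.8 in replicate 2. Below the others were Zm00001eb277090, at 4.59 and 0 against 43.7 to 1014, and Zm00001eb354650, at 21.8 and 10.3 against 26.0 to 8838. Their log2 differences were -6.64 ± 1.03 and -6.44 ± 0.99 (limma adjusted p = 0.00246 and 0.00228). In both, replicate 1 of the fifth leaf was high, at 93.8 and 2637, while replicate 2 of the fifth leaf was low, at 2.43 and 14.6. Without replicate 2 of the ninth leaf none of these 4 ninth leaf genes was called, with limma adjusted p from 0.0655 to 0.246, and 1 library then stood for the group. The log2 differences were then 4.46, 3.54, -5.40 and -5.94, in the same directions. None of the 4 passed against the spread between landraces (limma adjusted p, in the order named, of 0.99991, 0.102, 0.417 and 0.99991).

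**Figure D4:**
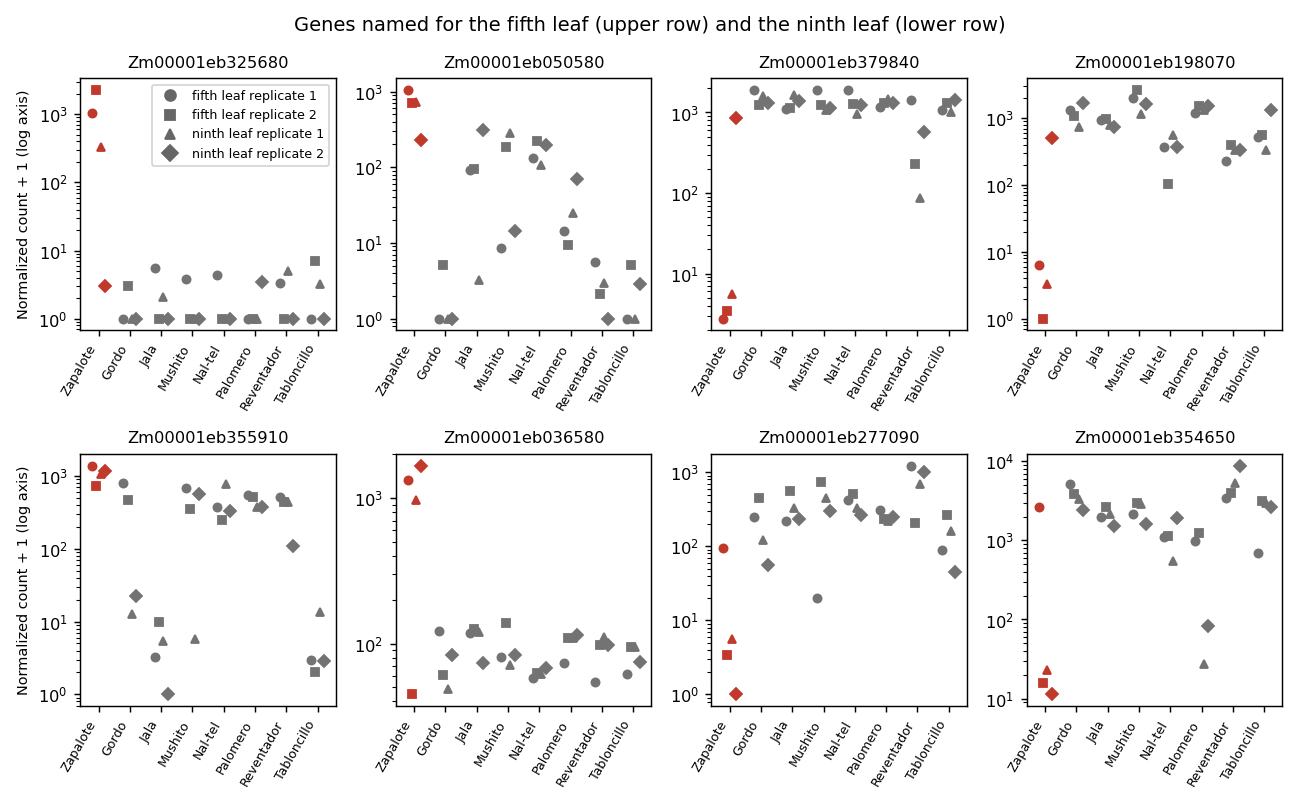
Normalized count plus 1 on a log axis in each of the 32 libraries for the 4 genes named in the fifth leaf (upper row) and the 4 named in the ninth leaf (lower row), with Zapalote in red and one symbol per leaf and replicate. Zapalote libraries split in 6 of the 8 panels: replicate 2 of the ninth leaf (diamond) leaves its mates in Zm00001eb325680, Zm00001eb379840 and Zm00001eb198070, and a library of the fifth leaf does so in Zm00001eb036580, Zm00001eb277090 and Zm00001eb354650.

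Genes whose difference between the ninth and the fifth leaf in Zapalote departed from the mean leaf difference of the other 7 landraces numbered 26 (limma adjusted p under 0.05, 0.0994% of genes tested), 14 with a higher and 12 with a lower difference. Without replicate 2 of the ninth leaf the count was 14 (0.0535%), of which 6 were among the 26. It was 57 without replicate 1 of the fifth leaf, 6 without replicate 2 of the fifth leaf and 111 without replicate 1 of the ninth leaf, so each Zapalote library moved it. DESeq2 called 234 genes (0.895%) and edgeR 2 (0.00765%). Within Zapalote itself, 65 genes differed between its leaves (0.249%), 40 of them higher in the ninth. With that leaf's replicate 2 left out, 19 did (0.0726%), 4 of them higher in the ninth, and 9 of the 19 were among the 65.

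Zm00001eb293910 was low in the fifth leaf of Zapalote, at 8.77 and 26.7, while its ninth leaf values were 96.4 and 103. In each of the other 7 landraces the mean was higher in the fifth leaf than in the ninth, as in Tabloncillo at 131 and 49.5. The difference of leaf differences was 3.20 ± 0.49 on the log2 scale (limma adjusted p = 0.00989). Zm00001eb214370 had values of 34.2 and 40.1 in the fifth leaf and ninth leaf values of 330.5 and 259, a difference of 2.79 ± 0.46 (limma adjusted p = 0.0192). There the other landraces did not share a direction: Mushito had means of 86.6 and 347 in the respective leaves, and Tabloncillo of 352 and 96.6.

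In the opposite direction, Zm00001eb196780 held 316 and 343 for Zapalote in the fifth leaf, then 0 and 2.05 in the ninth. Gordo had means of 178 and 368 and Nal-tel of 543 and 465 in the fifth and ninth leaf, Palomero stayed at 44.2 and 46.2, and Jala was at 1.13 and 0. The difference was -7.91 ± 1.19 (limma adjusted p = 0.00867). In edgeR it was not called (adjusted p = 1), nor were Zm00001eb293910 and Zm00001eb214370 (adjusted p = 0.0578 in each). Zm00001eb415760 was abundant throughout, and the fifth leaf values were 5173 and 5589 and the ninth leaf values 2380 and 1849 (difference -1.44 ± 0.22, limma adjusted p = 0.00867). The fifth leaf mean of 5381 in Zapalote stood beside means of 1361 in Palomero to 4951 in Reventador. Without replicate 2 of the ninth leaf, Zm00001eb196780 was still called (adjusted p = 0.0186), while Zm00001eb293910, Zm00001eb214370 and Zm00001eb415760 were not (limma adjusted p = 0.0711, 0.0711 and 0.110). The differences of those 3 were then 3.15, 2.97 and -1.25. The call of Zm00001eb196780 was lost without replicate 2 of the fifth leaf and at a pseudocount of 0.1. At a pseudocount of 10 its difference was -5.14. Against the spread between landraces none of these 4 genes passed, with limma adjusted p from 0.128 to 0.756.

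**Figure D5:**
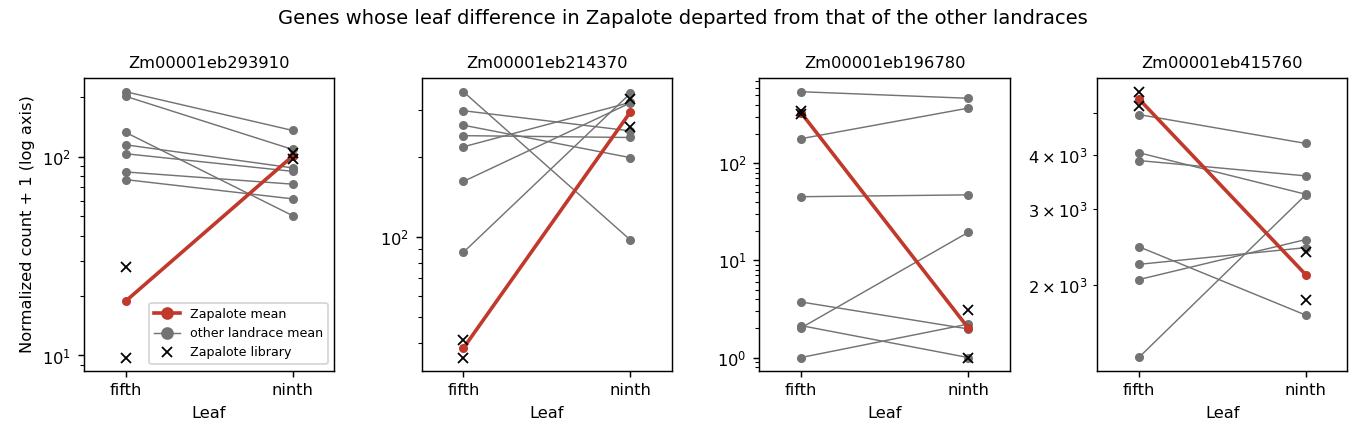
Mean normalized count plus 1 on a log axis in the fifth and the ninth leaf for each landrace, for the 4 genes named for the leaf difference. Zapalote is in red with its single libraries as crosses, the other 7 landraces in grey; the red line runs against most grey lines in Zm00001eb293910 and falls most steeply in Zm00001eb196780.

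Among the other landraces, Nal-tel, Tabloncillo and Jala were closest to Zapalote in the correlation over all pairs of libraries and Palomero farthest. The median r over the 16 pairs of libraries was 0.926 with Nal-tel, 0.923 with Tabloncillo, 0.9225 with Jala and 0.912 with Palomero. The ranges of single pairs overlapped between neighbours in this order, with Nal-tel at 0.913 to 0.944 and Palomero at 0.899 to 0.917. Gordo was at 0.919 with all 4 Zapalote libraries and at 0.916 without replicate 2 of the ninth leaf. Over pairs from the same leaf, with all 4 Zapalote libraries, Nal-tel (0.928), Jala (0.926) and Gordo (0.922) came before Tabloncillo (0.921). Palomero (0.915) was again farthest. By the number of genes whose 4 and 4 libraries did not overlap, the order was another one. Tabloncillo differed from Zapalote in 7.49% of genes tested, Mushito in 7.78% and Palomero in 13.96%, while Nal-tel, first by correlation, differed in 12.3%. With 3 Zapalote libraries, leaving out replicate 2 of the ninth leaf, which makes separation easier, the shares were 12.4% for Mushito, 12.6% for Tabloncillo, 18.5% for Nal-tel and 20.6% for Palomero. Gordo went from 9.43% to 17.2%. In the 1261 called genes, Reventador had the mean nearest to Zapalote in 22.0% and Palomero in 8.41%, against 14.5% and 12.1% over all genes tested. Among the 969 genes called without replicate 2 of the ninth leaf, and with that library left out, Reventador had 25.1%, Palomero 8.88% and Gordo 8.26%, against 16.4%, 12.6% and 13.3% over all.

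Called genes were also looked up by their neighbours in the order of the IDs. Of the 611 genes higher in Zapalote, 73 (11.9%) had an adjacent tested gene called in the same direction, against 4.59% of all tested genes with such a neighbour. Of the 650 lower genes 77 (11.8%) did, against 4.89%. The shares were 12.6% against 3.31% and 9.42% against 4.01% without replicate 2 of the ninth leaf. The longest runs were of 4 and 3 genes. The order of IDs is the only hint of position in the files, and no coordinate was used.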

How the data were processed

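The authors deposited 1 table of normalized counts, a signal in which reads per gene are divided by a factor for each library. STAR, featureCounts and DESeq2 are named per the submitters' processing notes; their versions and settings, the genome build and the annotation are not given in the sources used here. Libraries were directional and made from poly(A) RNA, per the labels' protocols. In each library 100% of the values were whole multiples of 1 step (tolerance 0.01 of a step), so whole reads were recovered. For replicate 1 of the ninth leaf of Reventador and replicate 2 of the ninth leaf of Gordo that step is close to 1. Of recovered values from 1 to 20, 76.7% to 87.0% were even, as mates of a pair counted singly would give, so a read is not an independent molecule, and the floor of 3 reads allows for counting error alone.

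The main test was limma 3.58.1 (R 4.3.3) on log2(normalized count + 1) over genes averaging 10 or more, with 16 group means, 1 shared spread and an intensity trend. Contrasts set Zapalote against the mean of the other 7 landraces, weighting leaves and landraces equally. P-values were Benjamini-Hochberg adjusted over all 26156 genes, and genes under 0.05 were called. The pseudocount of 1 makes the log2 differences of low genes smaller than they are. On the recovered reads, edgeR 4.0.16 (quasi-likelihood, TMM) called 1325 genes over both leaves and DESeq2 1.42.0 called 2116. The fits were tested on simulated data. Summaries and figures used matplotlib 3.10.9, pandas 2.3.3 and numpy 2.4.6 in Python 3.11.15.

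The comparison, its lists and the naming rule were chosen with earlier results of these data known. Named genes passed the threshold, had a mean of at least 100 and had all Zapalote libraries of the comparison beyond every other. They were taken by the size of the log2 difference, at most 2 each way. For the leaf difference they were taken by p. Genes at the floor (3 reads or fewer) on 1 side were taken by level, and those of the departing library by its gap to the nearest mate. Planned gene lists and cell markers were not run, because no ID could be paired with a name. Alternatives covered the pseudocount, the filter, quantile normalization, a replicate block, the spread between landraces, and leaving out each library and each other landrace. The position between landraces and its alternatives were chosen after seeing the data.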

Additional observations from a re-analysis of the deposited data

Results flagged for a closer look

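Of 28 measures of the 4 Zapalote libraries, 9 had 1 library set apart from the other 3 by nearly the whole range of the 4. Chance flags about 1 in 20 groups of independent values. That rate does not apply here, since the measures share libraries, the positions were chosen after replicate 2 of the ninth leaf was seen to depart, and the genes were named for their values in one leaf. Replicate 2 of the ninth leaf was that library in 7 of the 9. Its share of held-out genes on the side of its mates was 67.9%, the low end of the 4. Its median log2 position was the high end toward Gordo (0.49), Reventador (0.20), Mushito (0.20) and Palomero (0.18). It was the high library in Zm00001eb379840, with a normalized count of 845, and in Zm00001eb198070, with 503. Replicate 1 of the fifth leaf was the high library in Zm00001eb277090, at 93.8, and in Zm00001eb354650, at 2637.

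The leaf difference of Zapalote departed from that of the other 7 landraces by an interaction test in 26 genes (limma adjusted p under 0.05). The difference of differences was 3.20 in Zm00001eb293910, 2.79 in Zm00001eb214370, -7.91 in Zm00001eb196780 and -1.44 in Zm00001eb415760 on the log2 scale.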

How the results depend on the processing

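Over both leaves the count of 1261 became 2116 in DESeq2 and 9 against the spread between landraces, and ran from 436 to 1497 as each library was left out. In the fifth leaf 1096 became 1982 in DESeq2, 480 with only the 16 libraries of that leaf, 3 against the spread between landraces and 618 without Palomero, and ran from 86 to 1344 without each library. In the ninth leaf 188 became 556 in DESeq2, 346 in edgeR, 113 at a mean of at least 50 and 115 without Palomero, and ran from 78 to 213 without each library. Against the spread between landraces limma called 0 ninth leaf genes, with 496 at an unadjusted p under 0.05. The 496 are a smaller share of the 26156 genes than the 0.05 that p-values give without any difference. The leaf difference count of 26 became 234 in DESeq2, 2 in edgeR, 2 against the spread between landraces, 11 at a mean of at least 50, 69 with no filter, 17 after quantile normalization, and 8, 17, 14 and 10 without Jala, Nal-tel, Palomero and Reventador. It ran from 6 to 111 without each library. The 27 genes that did not overlap became 27 to 115 without each library, 40 with no filter and 18 at a mean of at least 50. The causes were not tested.

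With the replicate number as a block, the counts were 1208 over both leaves, 1046 in the fifth leaf, 174 in the ninth leaf and 12 for the leaf difference. Deviations of same-numbered libraries from their group means correlated at -0.175 to 0.112 over the 8 landraces (0.0892 in Zapalote), so the numbers were not taken to pair the libraries.

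The share of genes in which replicate 2 of the ninth leaf lay 4-fold from its mates, 2.24%, was 2.68% and 1.02% at pseudocounts of 0.1 and 10, 2.95% with no filter and 1.27% at a mean of at least 50. Against 2 mates in place of 3 it was 3.17% to 4.05%. Its position toward Gordo was 0.46 to 0.61 without single libraries and 0.47 to 0.56 under the other alternatives.

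For named genes, 879 of 926 alternative values kept the call or moved less than the spread of the mates, 42 lost the call, 5 gaps to the mates moved further with the pseudocount and 0 values reversed. The spread between landraces accounted for 13 of the 42, and so lost the call in 13 of the 19 genes it was applied to. Leaving out any single library of another landrace lost no call, and such fits make up many of the 926 values.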
